A study of Mus musculus with 10 samples.

Results

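Semaphorins, plexins, ephrins and Eph receptors are cell-surface and secreted guidance molecules, and 49 of the 13578 genes measured in the somatic cells of the fetal mouse ovary belong to them. The members were all genes whose symbol begins with Sema3 to Sema7 or with Plxna, Plxnb, Plxnc or Plxnd, or is that of an Eph receptor (Epha, Ephb) or an ephrin (Efna, Efnb) followed by its number. They comprised 20 semaphorins, 8 plexins, 13 Eph receptors and 8 ephrins. Of the 51 genes of these families in GENCODE M21, Epha10 and Plxnb3 were not analysed here. RNA had been sequenced from Oct4-negative gonadal cells, the fraction left once germ cells carrying the pluripotency factor Oct4 were sorted away, of single female embryos at embryonic day 13.5, from a colony on a C57BL/6 background. All 10 embryos, controls included, were Gulo-/-, so that they cannot make vitamin C and depend on the maternal diet for it. In 5 embryos vitamin C had been supplied at physiological levels, and in 5 it had been withdrawn over the first weeks of gestation. Comparing withdrawn with supplied embryos addresses how the somatic transcriptome of the gonad depends on maternal vitamin C.

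Semaphorins are ligands that bind plexins. The class 3 semaphorins are secreted and mostly need a neuropilin as co-receptor, whereas those of classes 4 to 7 are held in the membrane, and an activated plexin acts on small GTPases and the cytoskeleton so that the cell retracts or turns. Ephrins are ligands that stay on the cell surface, the A ephrins by a lipid anchor and the B ephrins by a membrane-spanning stretch. They bind Eph receptor tyrosine kinases on a neighbouring cell, mostly within their own class, and signal in both cells. Outside the nervous system both systems are known for sorting cells at tissue borders and for patterning blood vessels, where Sema3e with Plxnd1 and Efnb2 with Ephb4 are the classical pairs.

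Levels are the authors' regularised log2 (rlog) values. This transform draws weakly expressed genes towards their mean, so that differences of such genes are understated. The read depth is unknown, and no counting interval is given. Differences are withdrawn minus supplied in rlog units, ± marks the SD over n = 5 embryos of a group, and p-values are from limma fitted to all genes with Benjamini-Hochberg adjustment. In these bulk samples, fewer cells of a type and less RNA per cell cannot be told apart.

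The libraries held genes of the ovarian supporting cells and of other gonadal cells. All 14 supporting cell markers (Foxl2, Wnt4 and others) were measured, with a mean level between 11.01 and 11.19 in supplied and 11.01 and 11.15 in withdrawn embryos. This list includes Gata4, Wt1, Nr5a1, Lhx9 and Emx2, so its mean does not measure supporting cells alone. Emx2 is also among the mesonephric and epithelial markers. Of 12 germ cell markers 5 were measured, at a mean level between 6.24 and 6.46 over all embryos, and Pou5f1 (Oct4), Ddx4 and Dazl were not among them. Supplied embryos 2 and 3 stood apart in neural and glial markers, of which 9 of 15 were measured. Their mean level was 8.01 and 7.71 in these embryos, between 7.31 and 7.40 in the other 3 supplied embryos and between 7.36 and 7.46 in the withdrawn ones. Both carry the same first number in their titles, as do withdrawn embryos 2 and 3, and no label says whether that marks a litter. The mean level of the 15 stromal markers was lowest in supplied embryo 2, at 12.18 against 12.27 to 12.40 in the other supplied and 12.31 to 12.49 in the withdrawn embryos. The mean level of the 18 endothelial markers ran from 8.53 to 8.70 in supplied and from 8.44 to 8.59 in withdrawn embryos, lowest in withdrawn embryo 1.

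No semaphorin, plexin, Eph or ephrin gene passed the test for a change with vitamin C withdrawal. Of the 49 members 0 had an adjusted p under 0.05, where 3 of all 13578 genes did (0.0221%). At an unadjusted p under 0.05 there were 5 members, or 10.2% beside 5.3% of all genes. They were Ephb1, Ephb2, Epha6 and Sema6c on the higher side, which held 2.45% of all genes, and Epha5 on the lower side, which held 2.84%. With 1 embryo left out this count ran from 2 (without withdrawn embryo 2) to 7 (without supplied embryo 4), and it was 3 without supplied embryo 2. With the endothelial marker mean as covariate it was 9, and with the neural and glial marker mean it was 3. In 0 members did the 5 withdrawn embryos lie wholly above or below the 5 supplied ones, as they did in 0.81% of all genes. The bound farthest from 0 among the 95% intervals of the 49 differences was 0.35, for Ephb1.

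The means of 32 of the 49 members (65.3%) were higher in withdrawn than in supplied embryos, as were 50.2% of all genes, and the median difference was 0.038, beside 0.00021 over all genes. By family the median difference was 0.032 in the semaphorins, 0.053 in the plexins, 0.046 in the Eph receptors and 0.055 in the ephrins. The differences ran from -0.11 (Plxnd1) to 0.21 (Ephb1). With supplied embryos 2 and 3 left out, a setting added after the data were seen, the median was -0.0036 in the semaphorins, 0.013 in the plexins, 0.069 in the Eph receptors and 0.037 in the ephrins, and 27 of 49 members were higher. With the endothelial marker mean as covariate 35 of 49 were higher, and with the neural and glial marker mean 28. Of the stromal markers 14 of 15 were higher in withdrawn embryos (median 0.094). At an unadjusted limma p under 0.05 there were 4 of them, beside 2.45% of all genes on that side. Of the neural and glial markers 8 of 9 were lower (median -0.15), and of the mesonephric and epithelial ones 10 of 12 (median -0.072). Lower too were 14 of 18 endothelial, 9 of 13 macrophage, 6 of 10 erythroid, 8 of 14 supporting cell and 3 of 5 germ cell markers. On the lower side 3 endothelial, 2 macrophage and 1 mesonephric or epithelial marker had an unadjusted limma p under 0.05, beside 2.84% of all genes. On the higher side 1 supporting cell marker did. The part of the cell makeup in the members' shift was not tested beyond these settings.

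**Figure D1:**
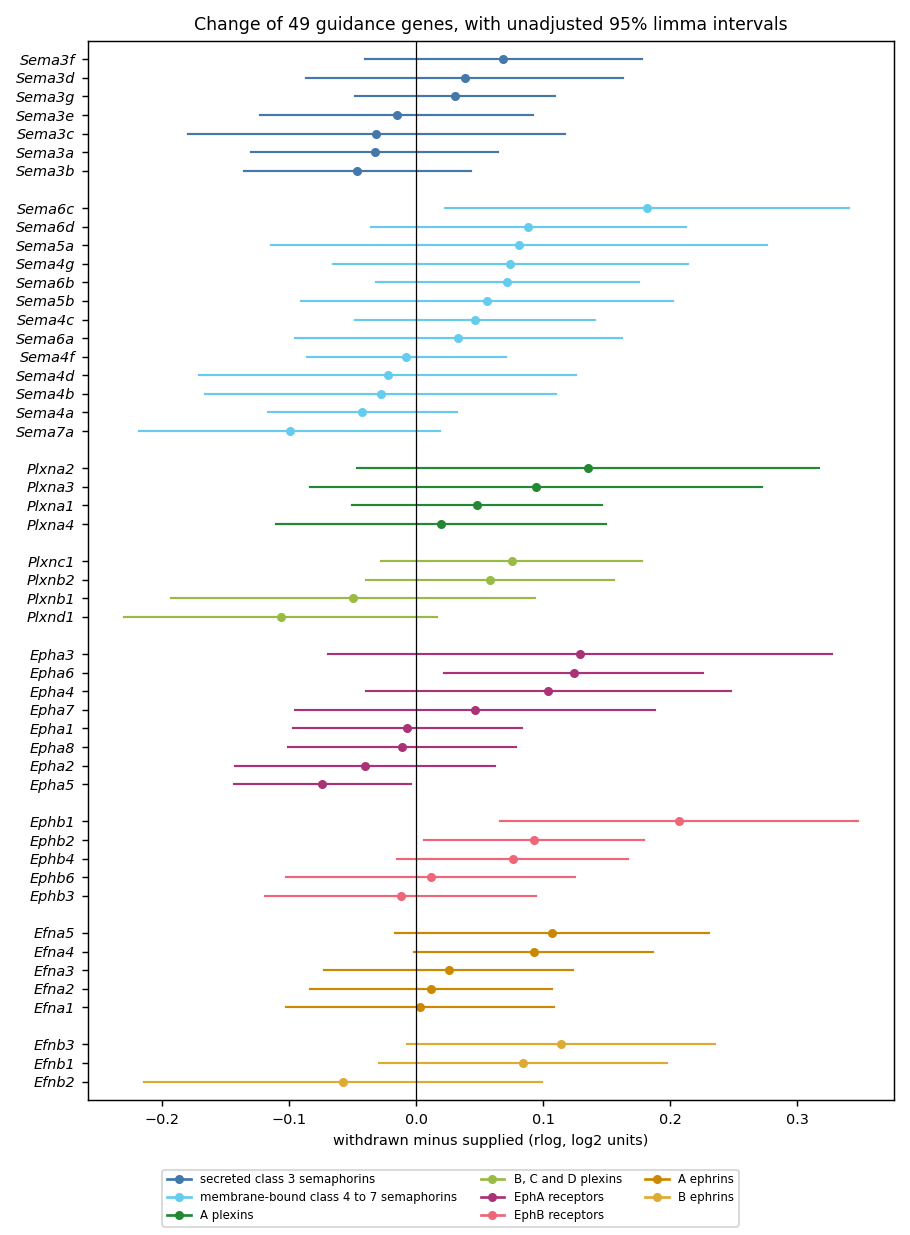
Difference between withdrawn and supplied embryos for each of the 49 genes (points, rlog in log2 units) with its unadjusted 95% limma interval (lines), grouped by subfamily in colour. The intervals of Ephb1, Ephb2, Epha6, Sema6c and Epha5 lie off 0, and no adjusted p is under 0.05.

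The 3 members of smallest p with a single promoter entry were all Eph receptors: Ephb1, Epha6 and Ephb2. Their promoters are shown because vitamin C is a cofactor of the TET enzymes, which act on methylated cytosines in CpG pairs. DNA methylation was not measured in these samples, so the sequences describe the genes and say nothing on methylation. They are the 250 bases before the transcription start in RefSeq on GRCm38.p6, another build than the mm9 of the expression table, each on the minus strand and written 5′ to 3′, with CpG in capitals. Ephb1 lies at chr9:102354694-102354943, Epha6 at chr16:60605532-60605781 and Ephb2 at chr4:136836013-136836262.
Ephb1: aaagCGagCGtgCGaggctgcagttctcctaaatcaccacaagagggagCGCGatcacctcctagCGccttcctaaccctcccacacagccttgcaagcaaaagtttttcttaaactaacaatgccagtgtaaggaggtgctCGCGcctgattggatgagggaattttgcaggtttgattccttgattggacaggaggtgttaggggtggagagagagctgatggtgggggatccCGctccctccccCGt
Epha6: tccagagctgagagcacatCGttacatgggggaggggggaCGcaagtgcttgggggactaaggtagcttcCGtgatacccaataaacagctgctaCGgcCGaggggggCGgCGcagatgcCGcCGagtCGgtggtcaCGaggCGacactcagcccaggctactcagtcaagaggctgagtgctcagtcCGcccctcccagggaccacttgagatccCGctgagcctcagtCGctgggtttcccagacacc
Ephb2: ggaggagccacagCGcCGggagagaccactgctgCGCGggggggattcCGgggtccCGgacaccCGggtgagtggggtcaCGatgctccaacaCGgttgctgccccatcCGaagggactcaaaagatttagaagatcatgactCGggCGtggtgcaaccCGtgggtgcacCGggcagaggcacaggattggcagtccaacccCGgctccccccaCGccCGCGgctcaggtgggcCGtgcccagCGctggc
The stretch of Ephb1 holds 10 CpG, that of Epha6 15 and that of Ephb2 20. Over the 43 members with a RefSeq promoter the median was 17 (from 2 in Sema3a and Sema4d to 46 in Epha8), and over the 9576 genes of the table with one it was 17 as well, taking the start richest in CpG where a gene has several. At least as many CpG as in Ephb1 were found in 78.4% of those genes, as in Epha6 in 60.0% and as in Ephb2 in 39.8%.

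To compare levels between genes, the log2 of the exon length in kilobases was subtracted from the rlog value. On this per-length scale the highest members, with the SD over 10 embryos, were the plexin Plxnb2 (11.07 ± 0.059), the ephrin Efnb1 (10.73 ± 0.095) and the receptor Ephb4 (10.24 ± 0.063). Plxnb2 is a receptor of class 4 semaphorins, and Efnb1 is an X-linked ligand of EphB receptors. Next came Sema6a (9.60), Plxnd1 (9.60), Plxna1 (9.58) and Efnb2 (9.58). The lowest was Epha5, at 2.11, followed by Sema4f at 3.95 and Sema6b at 4.47.

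Within the subfamilies the members differed in per-length level. Among the class 3 semaphorins Sema3a (9.02), Sema3f (8.76), Sema3c (8.41) and Sema3d (8.28) stood more than 2 log2 units above Sema3e (5.95), Sema3b (5.40) and Sema3g (4.78). Sema3a is the founding repellent ligand of the class, and Sema3e is the ligand of Plxnd1 that needs no neuropilin. Among the membrane-bound semaphorins Sema6a, Sema5a (9.08), Sema5b (8.99), Sema6d (8.88) and Sema4c (8.65) led, and Sema4d, the ligand of Plxnb1, stood at 6.12. The A plexins were led by Plxna1 and Plxna2 (8.69), followed by Plxna4 (8.43) and Plxna3 (7.74). Among the EphA receptors Epha7 (8.45) was 1.22 above Epha2, the next in order, and among the EphB receptors Ephb4 was 2.35 above Ephb2 (7.88). The A ephrins were led by Efna5 (8.76) and Efna2 (8.54), and the B ephrins ran from Efnb1 through Efnb2 to Efnb3 (7.92). In 29 of the 41 pairs of neighbours in these orders the 10 embryos of one gene all lay above those of the other. The length of a gene is the same in every embryo, so these ranges show only the spread between embryos and no error in length. The 12 pairs whose ranges overlapped included Ephb6 and Ephb3 (difference 0.00036), Epha2 and Epha4 (0.039), Sema5a and Sema5b (0.095) and Efna5 and Efna2 (0.21).

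**Figure D2:**
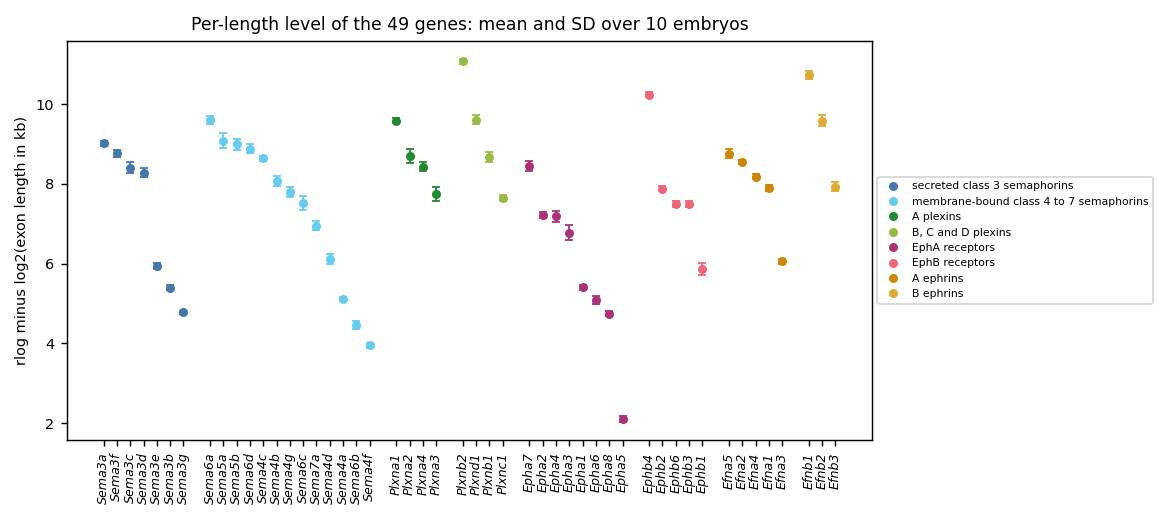
Per-length level (rlog minus log2 of the exon length in kilobases) of the 49 genes, in falling order within each subfamily, as mean and SD over the 10 embryos. Plxnb2 at 11.07, Efnb1 at 10.73 and Ephb4 at 10.24 head the receptors and ligands, and Epha5 at 2.11 is the lowest.

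Among the secreted class 3 semaphorins 3 of 7 were higher and 4 lower in withdrawn embryos, with a median difference of -0.015. The 2 of smallest p were Sema3f and Sema3b, which lie close together on chromosome 9. Sema3f, a repellent ligand that acts through Nrp2, was at 10.45, 10.45, 10.44, 10.65 and 10.67 in supplied embryos 1 to 5 and between 10.57 and 10.64 in all 5 withdrawn ones. The withdrawn values thus lay between the low and the high supplied embryos, and the difference was 0.069 (SE 0.052, limma adjusted p = 0.978). Sema3b, a secreted ligand of the same class, differed by -0.047 (SE 0.042, limma adjusted p = 0.989). Sema3a was at 11.67 ± 0.053 and 11.64 ± 0.077, a difference of -0.033, and Sema3e at 8.74 ± 0.10 and 8.72 ± 0.043, a difference of -0.015. The other 3 ran from -0.031 (Sema3c) to 0.038 (Sema3d). Sema3c spread more in withdrawn embryos (SD 0.18, from 10.65 to 11.03) than in supplied ones (SD 0.074, from 10.80 to 10.97), and this difference in spread was not tested.

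Of the membrane-bound semaphorins 8 of 13 were higher and 5 lower, with a median difference of 0.046. Sema6c, a transmembrane ligand of A plexins, was at 9.42, 9.31, 9.24, 9.55 and 9.70 in supplied embryos 1 to 5 and at 9.61, 9.65, 9.73, 9.46 and 9.67 in the withdrawn ones. Supplied embryos 2 and 3 were the lowest of all 10, and the highest withdrawn embryo was the only one above every supplied one. The difference was 0.18 (SE 0.075, unadjusted p = 0.0274, limma adjusted p = 0.928), and without supplied embryos 2 and 3 it was 0.068 (limma adjusted p = 0.996). Over the 23 other settings it ran from 0.068 to 0.25. Sema7a, the member held by a lipid anchor and a ligand of Plxnc1, was second in p, on the lower side. It was at 8.72 ± 0.073 and 8.62 ± 0.11, with 3 of 5 withdrawn embryos below all supplied ones (-0.10, SE 0.056, limma adjusted p = 0.956).

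Sema5a, a semaphorin with thrombospondin repeats, varied most among the semaphorins. It was at 12.54, 12.19, 12.54, 12.85 and 12.27 in supplied embryos and between 12.46 and 12.67 in withdrawn ones, so that the supplied group held both the highest and the lowest embryo (difference 0.081, limma adjusted p = 0.991, and 0.0090 without supplied embryo 2). The difference was 0.17 without supplied embryo 4 and 0.21 with the endothelial marker mean as covariate. Sema6a, a ligand of Plxna2 and Plxna4, was lowest in supplied embryo 2 as well, at 12.18 against 12.38 to 12.54 in the other 9 embryos. Its difference was 0.033 with all embryos and -0.026 without supplied embryo 2. Sema4d, known from immune cells and as a ligand of B plexins, was at 8.38 ± 0.10 and 8.35 ± 0.16, a difference of -0.023. The other 8 of the group ran from -0.042 (Sema4a) to 0.088 (Sema6d).

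All 4 A plexins, the receptors that pair with neuropilins or bind class 6 semaphorins, had a higher mean in withdrawn embryos, by 0.020 to 0.14, and 0 of them passed. Plxna2 was at 12.23, 11.78, 12.09, 12.31 and 12.05 in supplied embryos and at 12.09, 12.31, 12.45, 12.14 and 12.15 in withdrawn ones. Supplied embryo 2 was the lowest by 0.27 on the group's next value, and withdrawn embryo 3 was the highest (difference 0.14, SE 0.086, limma adjusted p = 0.963). Without supplied embryo 2 the difference was 0.058, and without supplied embryo 4 it was 0.19. With the endothelial marker mean as covariate the Plxna2 difference was 0.25. The X-linked Plxna3 ranged from 10.22 in supplied embryo 3 to 10.77 in withdrawn embryo 3 (0.094, limma adjusted p = 0.987). Its difference was 0.028 without the former embryo and 0.046 without the latter, but 0.15 without supplied embryo 4. Plxna1 differed by 0.048, by -0.0019 without supplied embryos 2 and 3 and by 0.10 with the endothelial marker mean as covariate.

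Of the other plexins Plxnc1 and Plxnb2 were higher and Plxnb1 and Plxnd1 lower in withdrawn embryos. Plxnd1, the endothelial receptor of Sema3e, was at 12.44, 12.51, 12.43, 12.50 and 12.34 in supplied embryos and at 12.11, 12.34, 12.38, 12.42 and 12.43 in withdrawn ones. Withdrawn embryo 1, which was also lowest in the endothelial marker mean (8.44), lay 0.23 below the next embryo, and the other 4 withdrawn embryos lay within the supplied range (difference -0.11, SE 0.058, limma adjusted p = 0.956). Without withdrawn embryo 1 the difference was -0.051, and without supplied embryo 5 it was -0.13. Of the 18 endothelial markers 14 were lower in withdrawn embryos, with a median of -0.033, a lowest difference of -0.39 and 0 past the threshold. At an unadjusted limma p under 0.05 there were 3 of 18, all lower, beside 2.84% of all genes on that side. Ephb4, of the other classical vessel pair, had its highest value of all 10 embryos in withdrawn embryo 1 (12.47). With the endothelial marker mean as covariate the Plxnd1 difference was -0.041. The part of endothelial cells in it was not tested further. Plxnb2 was at 13.76 ± 0.056 and 13.82 ± 0.051, a difference of 0.058 (limma adjusted p = 0.978). Plxnc1 was at 10.47 ± 0.052 and 10.55 ± 0.093, a difference of 0.075 (limma adjusted p = 0.963).

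Of the semaphorin co-receptors and effectors outside these families, 39 of 43 listed genes were measured, 19 higher and 20 lower (median -0.0061), and 0 passed the test in either direction. At an unadjusted p under 0.05 there were 4 of 39, all lower in withdrawn embryos, where 2.84% of all genes were on that side. Fes, a tyrosine kinase that binds plexin A1, was at 8.21, 8.13, 8.10, 8.20 and 8.10 in supplied and between 7.84 and 8.04 in the 5 withdrawn embryos. Its groups did not overlap, as in 0.81% of all genes (difference -0.17, SE 0.048, limma adjusted p = 0.722). The co-receptor Nrp1 was at 11.34 ± 0.11 and 11.36 ± 0.031 (difference 0.023, 95% interval from -0.083 to 0.13).

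Nrp2, the co-receptor of Sema3f, was at 10.18, 10.40, 10.27, 9.98 and 9.88 in supplied embryos and at 9.79, 9.99, 10.07, 9.94 and 9.91 in withdrawn ones, highest in supplied embryos 2 and 3 (difference -0.20, limma adjusted p = 0.928; -0.067 without these embryos). Dpysl3, a cytoskeletal effector of the collapsin response mediator family, was at 10.81 and 10.33 in the same embryos against 9.84 to 10.16 in the other 8 (-0.31, and -0.11 without them). Without supplied embryo 5 the difference was -0.26 in Nrp2 and -0.40 in Dpysl3. L1cam, a neuronal adhesion molecule and co-receptor for Sema3a, was highest in supplied embryo 2, at 7.38, but at 7.09 in supplied embryo 3. Its difference was -0.16, with -0.18 without supplied embryo 3 and -0.13 without supplied embryos 2 and 3. The neural and glial marker mean was highest in supplied embryos 2 and 3, at 8.01 and 7.71, as were Nrp2 and Dpysl3 but not L1cam.

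Among the ephrins 7 of 8 had a higher mean in withdrawn embryos, and Efnb2 a lower one. Of the A ephrins, Efna4 was at 8.78, 8.76, 8.85, 8.80 and 8.85 in supplied and at 8.97, 8.85, 8.88, 8.98 and 8.84 in withdrawn embryos. Withdrawn embryos 1, 3 and 4 were above all supplied ones (difference 0.092, SE 0.045, limma adjusted p = 0.931). Efna5, a ligand of many EphA receptors that also binds Ephb2, was at 10.72 ± 0.089 and 10.82 ± 0.12 (0.11, SE 0.059, limma adjusted p = 0.956), highest in withdrawn embryos 4 (10.98) and 2 (10.92). Efna2, Efna1 and Efna3 differed by 0.012, 0.0027 and 0.025.

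Of the B ephrins, Efnb3 was at 9.51, 9.42, 9.51, 9.72 and 9.53 in supplied and at 9.64, 9.78, 9.67, 9.63 and 9.53 in withdrawn embryos. Only withdrawn embryo 2 lay above every supplied embryo, and the other withdrawn ones lay within the supplied range (difference 0.11, SE 0.057, limma adjusted p = 0.947). Efnb1, the most abundant ephrin per length, was at 12.39 ± 0.10 and 12.47 ± 0.075 (0.084, limma adjusted p = 0.963). Efnb2, the arterial ligand of Ephb4, was highest in supplied embryo 4 (12.07) and withdrawn embryo 2 (12.05) and lowest in withdrawn embryo 5 (11.60). Its difference was -0.057, with a 95% interval from -0.21 to 0.099. The difference was -0.0031 without withdrawn embryo 5, -0.0088 without supplied embryo 4 and -0.12 without withdrawn embryo 2.

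The Eph receptors held 4 of the 5 members at an unadjusted p under 0.05, or 4 of 13 where 5.3% of all genes reached it. Ephb1, a receptor of B ephrins, was at 8.59, 8.25, 8.60, 8.46 and 8.40 in supplied embryos and at 8.72, 8.50, 8.74, 8.64 and 8.73 in withdrawn ones. Withdrawn embryos 1, 3, 4 and 5 were above every supplied embryo, and withdrawn embryo 2 lay within the supplied range. The difference was 0.21 (SE 0.067, 95% interval from 0.066 to 0.35, unadjusted p = 0.00654, limma adjusted p = 0.900), a ratio of 1.15 between the groups once taken off the log2 scale. It was between 0.15 and 0.25 in all 23 other settings. The locus of Ephb1 carries several gene models on the opposite strand and others on the same strand. Whether the counting used strand is not given in the sources, so their reads cannot be told apart from its own. Epha6 likewise overlaps gene models on both strands, and Epha5 a pseudogene on the opposite strand.

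Ephb2, another receptor of B ephrins, was at 11.35, 11.26, 11.31, 11.22 and 11.29 in supplied and at 11.39, 11.42, 11.38, 11.39 and 11.31 in withdrawn embryos. Here too 4 of 5 withdrawn embryos were above all supplied ones, with number 5 the exception (0.092, SE 0.041, unadjusted p = 0.0381, limma adjusted p = 0.928). The difference of Ephb2 was between 0.076 and 0.11 in the 23 other settings. With 1 embryo left out its unadjusted limma p ran from 0.022 (without withdrawn embryo 5) to 0.099 (without supplied embryo 4). Ephb4, the venous receptor of Efnb2, was at 12.37, 12.34, 12.29, 12.33 and 12.30 in supplied and at 12.47, 12.44, 12.32, 12.43 and 12.34 in withdrawn embryos, and 3 of 5 withdrawn embryos were above the supplied range (0.076, SE 0.043, limma adjusted p = 0.960). Zan, which overlaps Ephb4 on the opposite strand, was at 5.12 and 5.09. Ephb6, which lacks kinase activity, differed by 0.011 and Ephb3 by -0.012, so that the EphB median was 0.076 with 4 of 5 members higher.

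Of the EphA receptors 4 of 8 were higher and 4 lower, with a median of 0.019. Epha6, a receptor of A ephrins known from the nervous system, was at 6.91, 7.08, 7.02, 7.02 and 6.95 in supplied and at 7.06, 7.27, 7.08, 7.17 and 7.03 in withdrawn embryos (0.12, SE 0.048, unadjusted p = 0.0202, limma adjusted p = 0.928). Withdrawn embryos 2, 3 and 4 were above every supplied embryo, number 3 by a margin lost in rounding. The difference of Epha6 was between 0.088 and 0.16 in the 23 other settings. With 1 embryo left out its unadjusted limma p ran from 0.0098 (without withdrawn embryo 5) to 0.071 (without withdrawn embryo 2). Epha5, the least abundant member, was at 5.47, 5.60, 5.43, 5.49 and 5.41 in supplied and at 5.46, 5.41, 5.37, 5.39 and 5.40 in withdrawn embryos (-0.074, SE 0.033, unadjusted p = 0.0384, limma adjusted p = 0.930). Supplied embryo 2 was the highest, and without it the difference was -0.043 (limma adjusted p = 0.999). Without supplied embryo 5 the Epha5 difference was -0.092.

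Epha4, which binds both ephrin classes, was at 9.80 ± 0.13 and 9.90 ± 0.13 (0.10, limma adjusted p = 0.963), highest in withdrawn embryo 4 at 10.09. Its difference was 0.17 both without supplied embryos 2 and 3 and with the neural and glial covariate, and 0.058 without withdrawn embryo 4. Epha3, a receptor of Efna5, varied most of all members. It was at 9.93 in withdrawn embryo 5 and between 9.21 and 9.47 in the other 9 embryos (difference 0.13, SE 0.094, limma adjusted p = 0.978), and without that embryo the difference was 0.021. With the endothelial marker mean as covariate the Epha3 difference was 0.20. Epha7, the most abundant EphA receptor per length, differed by 0.046 and Epha2, a receptor of epithelial cells, by -0.040. Without supplied embryo 4 these differences were 0.0066 and -0.00092, and without supplied embryos 2 and 3 they were 0.13 and -0.082.

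**Figure D3:**
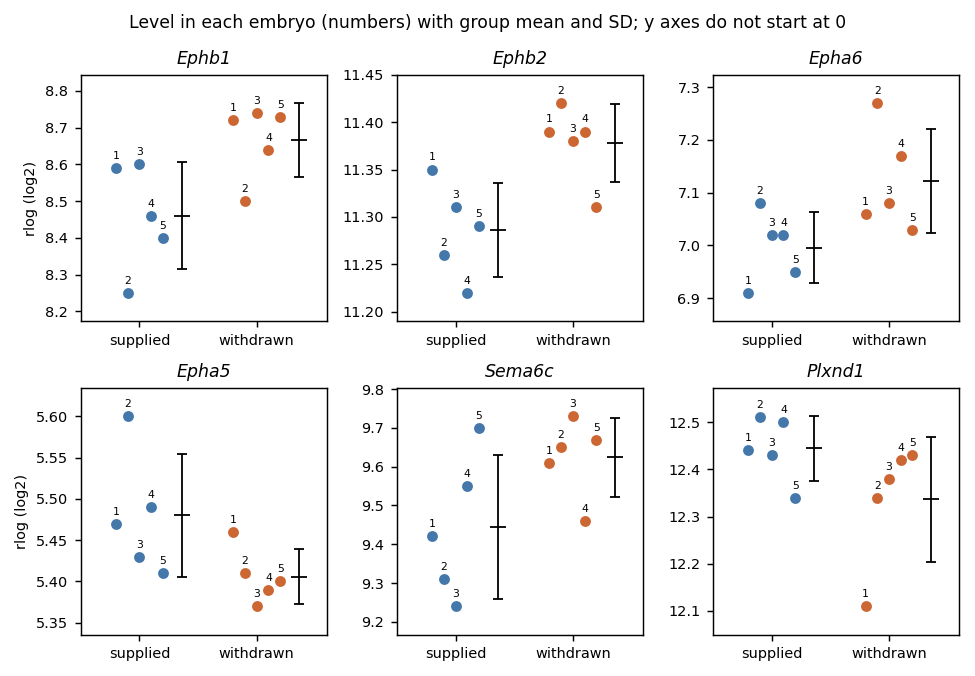
rlog level of the 5 genes at an unadjusted p under 0.05 and of Plxnd1 in each embryo (numbered points), with the group mean and SD in black, supplied in blue and withdrawn in orange. In Ephb1 and Ephb2 4 of 5 withdrawn embryos lie above all supplied ones, and the low mean of Plxnd1 in withdrawn embryos includes embryo 1 at 12.11.

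Of the listed effectors of Eph and ephrin signalling 41 of 42 were measured, 24 higher and 17 lower (median 0.0072), and 0 passed the test in either direction. At an unadjusted p under 0.05 there were 4 of 41, 1 higher and 3 lower, beside 5.3% of all genes. Tiam1, a Rac exchange factor recruited by Eph receptors and ephrins, was at 11.46, 11.43, 11.50, 11.41 and 11.43 in supplied and at 11.51, 11.61, 11.60, 11.55 and 11.57 in withdrawn embryos. Its groups did not overlap, as in 0.81% of all genes (difference 0.12, SE 0.039, unadjusted p = 0.00771, limma adjusted p = 0.900). Chn1, a Rac-inactivating effector of Epha4, was lower in every withdrawn embryo (8.39 to 8.48) than in every supplied one (8.49 to 8.57), with a difference of -0.088 (SE 0.041, limma adjusted p = 0.931). Vav3, a guanine nucleotide exchange factor, was at -0.17 and Ptpro, a phosphatase that acts on Eph receptors, at -0.16 (both limma adjusted p = 0.928).

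In the other guidance families, the slits, netrins and their receptors with associated genes, 24 of 28 listed genes were measured, with 17 higher, 7 lower and a median of 0.023, and 0 passed in either direction. Slit2, a secreted ligand of Robo receptors, was the 1 gene of 24 at an unadjusted p under 0.05 (5.3% of all genes), at 12.67 ± 0.091 and 12.79 ± 0.056 (0.12, SE 0.050, limma adjusted p = 0.928). Srgap2, a partner of Robo receptors, was at 0.098 and Unc5d, a netrin receptor, at 0.10.

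The median SD over the 10 embryos was 0.095 for the members and 0.074 for all genes, and 30 of 49 members were above the latter. The 6 most variable were Epha3 (SD 0.20), Sema5a (0.19), Plxna2 (0.18), Plxna3 (0.17), Sema6c (0.17) and Ephb1 (0.16). Supplied embryo 2 was the lowest of all 10 embryos in 11 members (22.4%, against 11.7% of all genes), among them Plxna2, Sema5a, Sema6a, Sema3d and Ephb1, and it had the lowest stromal marker mean, 12.18. Supplied embryo 3 was the lowest in 9 members (18.4%, against 10.5% of all genes), among them Plxna3 and Sema6c. Withdrawn embryo 3 was the highest in 11 members (22.4%, against 8.53% of all genes), among them Plxna2, Plxna3, Sema6c, Sema5b and Ephb1. The part of the cell makeup of these embryos in the counts was not tested.

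**Figure D4:**
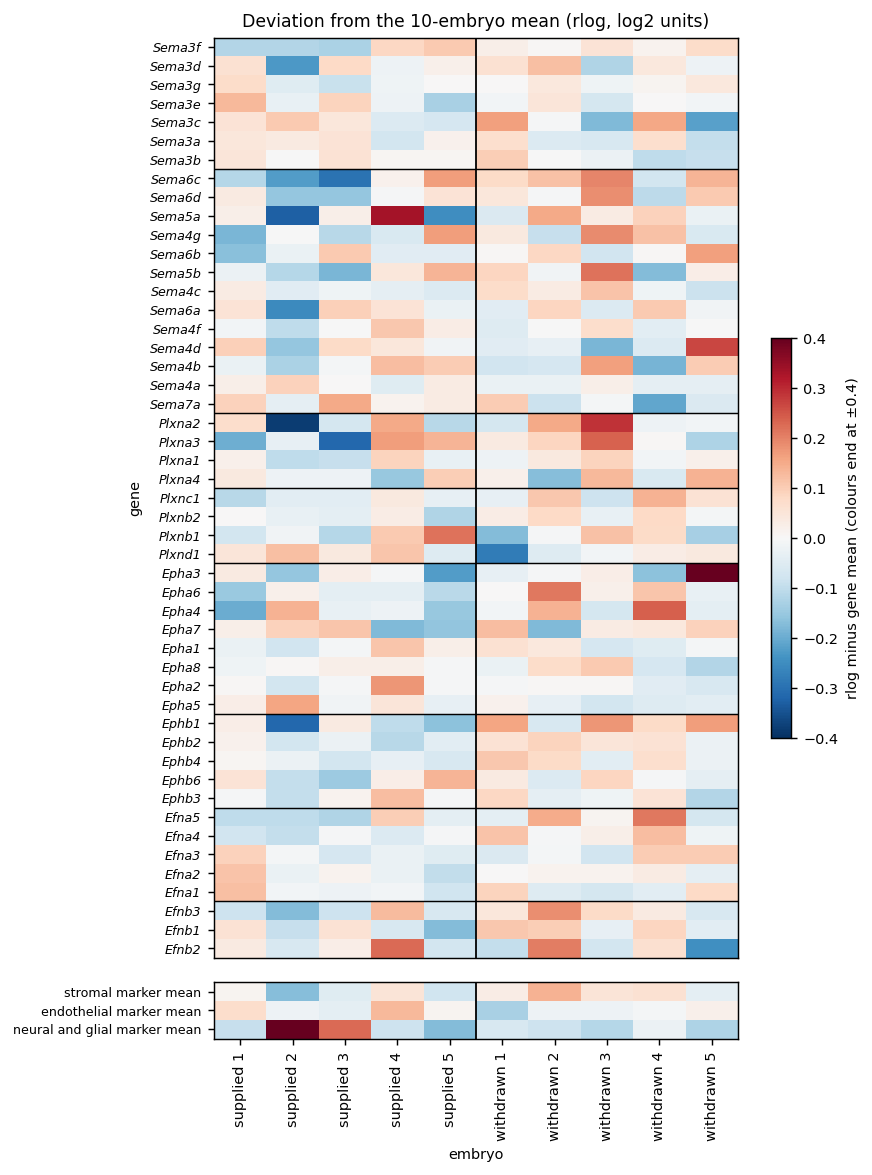
Deviation of each embryo (columns) from the 10-embryo mean of each gene (rows, grouped by subfamily), in rlog units with colours ending at ±0.4, above the same for 3 marker list means. Supplied embryo 2 is blue in Plxna2, Sema5a and Ephb1 and red in the neural and glial marker mean, and the full red of Epha3 is withdrawn embryo 5 at 9.93.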

How the data were processed

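Libraries were made from 2 ng of total RNA of sorted gonadal somatic cells with a kit for low input, per the labels' protocols. The authors deposited 1 table of log2-scale (rlog) values for 13578 genes. The submitters' processing notes name build mm9, and among the programs DESeq2 1.20.1, TopHat2 2.1.1 and Trim Galore 0.4.0, while counting, annotation and use of strand are not given in the sources used here. Depth per sample cannot be read from rlog values, so no count model was used. Sample medians lay between 9.12 and 9.14.

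Samples were grouped by their treatment label, and nothing ties the samples to separate litters, so p-values reflect only how these embryos vary. The test of every gene was that of limma 3.58.1 (R 4.3.3) with a variance trend, no covariate and no filter on low values (all 49 members entered, and 43 had a mean of at least 7), and p-values were adjusted by Benjamini-Hochberg over 13578 genes at 0.05. The test was tried on simulated data. The members and gene lists were chosen with earlier results of these data known. Every member with an unadjusted p under 0.05 was named, with the 2 of smallest p and the 2 of highest per-length level in each of 8 subfamilies, the 6 most variable, 8 fixed genes and the 3 of smallest p in each pathway list with Nrp1 and Nrp2. Others named for comparison, such as Sema3c, Efna1, Ephb3, Ephb6 and Chn1, were chosen after their values were seen. Exon lengths (union of coding transcripts' exons, GENCODE M21) and promoters (RefSeq) are on GRCm38 and were matched by symbol for 49 and 43 members. Of the members, 27 overlap another gene model.

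The same replicate number did not mark embryos that deviate together: the correlation of their deviations was 0.17 for number 1 and between -0.36 and -0.091 for the others. Other settings were a minimum mean of 5 or 7, quantile normalization, median centring, robust variance estimation, no variance trend, the replicate number as a block, sample weights, embryos sharing a title number averaged or as a random block, a marker mean as covariate, and leaving out embryos. In the random block setting, embryos of a group that share a title number had a consensus correlation of 0.24.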

Additional observations from a re-analysis of the deposited data

Results flagged for a closer look

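In 98 groups of 5 embryos, 1 for each member and treatment, 3 held an embryo that lay far from the other 4, where chance gives about 1 in 20 groups. Epha3 was at 9.93 in withdrawn embryo 5 and between 9.27 and 9.46 in the other withdrawn embryos. Plxnd1 was at 12.11 in withdrawn embryo 1 and between 12.34 and 12.43 in the other 4. Sema4a was at 6.92 in withdrawn embryo 3 and between 6.86 and 6.87 in the others.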

How the results depend on the processing

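The count of 0 members past the threshold held in all 23 other settings, and the count at an unadjusted p under 0.05 ran from 2 to 9 against 5. Over all genes 3 passed; the count was 1 at a mean of at least 7, with no variance trend, with quantile normalization and with title numbers averaged, 5 with robust variance estimation and with sample weights, and from 0 (without supplied embryo 1 or withdrawn embryo 5) to 4 with 1 embryo left out. With the replicate number as a block 2 genes and 0 members passed.

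The semaphorin median of 0.032 was 0.012 with title numbers averaged, -0.0046 with the neural and glial covariate, -0.0036 without supplied embryos 2 and 3, and from -0.011 (without supplied embryo 2) to 0.039 with 1 embryo left out. The Eph receptor median of 0.046 was 0.019 with sample weights, 0.076 at a mean of at least 7, 0.079 with title numbers averaged, 0.080 with the neural and glial covariate and from 0.020 (without supplied embryo 4) to 0.075 with 1 embryo left out. The plexin median of 0.053 was 0.087 with the endothelial covariate, 0.028 with the neural and glial covariate, 0.030 with title numbers averaged and 0.013 without supplied embryos 2 and 3. With 1 embryo left out it ran from 0.029 to 0.075, and the ephrin median from 0.034 to 0.073.

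Leaving out 1 embryo moved the difference of 23 of 30 named members, none past the threshold, by over 1.5 times at least once. Of these 30 members 24 kept their sign in every setting. The exceptions, none past the threshold, were Efna2 (from -0.012 without supplied embryo 5 to 0.042 with 1 embryo left out), Epha7 (-0.023 with the endothelial covariate), Plxna1 (-0.0019 without supplied embryos 2 and 3), Sema3e (0.014 and 0.0048 without supplied embryo 1 or 3, at the lowest -0.049 without supplied embryo 5), Sema4d (0.027 with the endothelial covariate, 0.020 without withdrawn embryo 3, at the lowest -0.091 without withdrawn embryo 5) and Sema6a (-0.015 with the neural and glial covariate, -0.0099 without supplied embryos 2 and 3, -0.026 without supplied embryo 2, at the highest 0.060 with 1 embryo left out and 0.075 with the endothelial covariate). Nrp1 ran from -0.017 (without supplied embryo 5) to 0.048 with 1 embryo left out. The cause was not tested. Unknown depth and rlog shrinkage limit what can be seen in weakly expressed members such as Epha5.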
